A study of Homo sapiens with 12 samples.

Results

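A set of 40 genes that act in mitosis and in the G2 phase before it were followed through MEK inhibition in KP4 and MiaPaca2, a pair of established human cell lines from pancreatic ductal adenocarcinoma. The genes were taken by symbol from a fixed list and matched to Ensembl identifiers in a table of raw read counts. All 40 were found among the 58735 genes of the table, and all 40 passed the filter on low counts that left 16133 genes for testing. Cells of both lines had been grown in serum-containing DMEM and kept for 48 h in DMSO, the solvent, or in 100 nM trametinib, a drug that blocks MEK1 and MEK2, the kinases just above ERK. The 4 groups were KP4 in DMSO, KP4 in trametinib, MiaPaca2 in DMSO and MiaPaca2 in trametinib, with 3 poly(A) RNA libraries in each. The labels name no engineered allele in either line, and each is a single line, so a difference between them is a difference between these cells only. They do not say whether the 3 libraries of a group came from separate cultures, so the p-values measure the spread between these libraries, which may be technical.

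Entry into mitosis is driven by the kinase CDK1 bound to cyclin B, which is held inactive by phosphorylation until CDC25 phosphatases release it. The spindle then captures chromosomes at their kinetochores, the spindle checkpoint holds the cell until all are attached, and the anaphase-promoting complex (APC/C) with its activator CDC20 marks cyclin B and securin for destruction. Transcripts of most of these genes are low in G1 and highest in G2 and mitosis. The DREAM complex represses them in resting cells, and B-MYB and FOXM1, joined to the same MuvB core, activate them later in the cycle. Many of their promoters carry CCAAT boxes, bound by NF-Y, and a CHR element with the letters TTTGAA, through which MuvB binds. ERK signalling lies upstream of this programme, since it drives cyclin D and with it passage out of G1.

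Library totals lay between 20293688 and 28018129 counts, and the lowest count of any of the 40 genes in any library was 180. Levels are given as CPM, counts scaled to the size of the library with TMM factors. All 8 listed ERK output genes, from DUSP6 to EGR1, were lower with trametinib in both lines. As for the cell type, the epithelial keratin gene KRT19 stood at 3.25 CPM in KP4 DMSO and 177 CPM in MiaPaca2 DMSO. KRT8 and KRT18 were also higher in untreated MiaPaca2 than in untreated KP4, at 51.9 and 872 CPM and 183 and 759 CPM. So was SOX9, at 126 and 189 CPM. The keratin gene KRT7 was lower in untreated MiaPaca2, at 2.49 and 0.872 CPM, as was GATA6, at 9.8 and 5.1 CPM. The defining epithelial genes EPCAM and CDH1 were at 0.353 and 0.472 CPM in KP4 DMSO and 0.196 and 0.141 CPM in MiaPaca2 DMSO. Of these 8 markers 4 were called higher and 3 lower in untreated MiaPaca2, where 31.2% and 32.0% of all genes were. The 8 epithelial and ductal markers summed to 372 to 386 CPM in KP4 DMSO and 238 to 248 CPM with trametinib, and in MiaPaca2 to 1835 to 2205 CPM and 748 to 766 CPM. With trametinib 2 of them fell and 4 rose in KP4, and 4 fell and 3 rose in MiaPaca2. Of all genes 24.1% were called lower and 23.9% higher in KP4, and 29.7% and 34.4% in MiaPaca2. On the log2 scale CDH1 rose by 3.39 in KP4 and 3.95 in MiaPaca2, and GATA6 by 0.44 and 1.075. KRT18 fell by 0.53 and 1.80, and SOX9 by 2.21 and 1.54. KRT8 and KRT19 rose by 0.30 and 0.43 in KP4 and fell by 1.26 and 0.86 in MiaPaca2. Of the 4 mesenchymal markers in DMSO, VIM was higher in MiaPaca2 (3629 CPM in KP4 and 6061 CPM in MiaPaca2), CDH2 was lower (131 and 33.9 CPM), and ZEB1 and FN1 did not pass the test. With trametinib 2 of these 4 fell and 1 rose in KP4, and 2 fell and 2 rose in MiaPaca2. The acinar genes PRSS1, CPA1, CELA3A and PNLIP, the T cell gene CD3E and the endothelial gene KDR had 0 counts in all groups. The 5 fibroblast markers summed to 7.37 to 8.70 CPM in KP4 DMSO and 12.9 to 13.4 CPM with trametinib, and in MiaPaca2 to 72.5 to 123 CPM and 219 to 232 CPM, mostly from COL1A2 in MiaPaca2 (101 and 209.6 CPM), while DCN and LUM stayed near 0. Of these 5, 2 were called higher with trametinib in KP4 and 3 in MiaPaca2, and the part of these markers in the results below was not tested.

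MiaPaca2 DMSO replicate 2 stood apart from its group, as a chi-square test of the counts showed: divided by its degrees of freedom, the statistic was 14.489 against replicate 1, 13.285 against replicate 3, and 7.698 between replicates 1 and 3, where all pairs in the other 3 groups gave 2.015 to 2.888. Of the 40 genes, 10 lay above the group mean in that library, 30 in replicate 1 and 27 in replicate 3. Their median deviation from the group mean on the log2 scale was −0.06 in that library, 0.05 in replicate 1 and 0.02 in replicate 3. Without that library the MiaPaca2 calls were 38 lower and 1 higher, as with it, and the median log2 fold change of the 40 genes was −0.75. Exons of CCNA2, CDC25C, FOXM1, KIF4A, KIF20A and ANLN overlap those of other expressed protein-coding genes on the opposite strand. Whether strand was used in counting is not given in the sources used here. For CDC25C the other gene is FAM53C, with 42983 counts over all libraries against 8273 for CDC25C. Exons of CENPA, PRC1 and BUB1B overlap those of genes on the same strand, which counting by strand would not separate. For CENPA this is SLC35F6, with 28806 counts over all libraries against 13183 for CENPA. For BUB1B it is BUB1B-PAK6, with 0 counts against 26805 for BUB1B. The levels of all these genes are therefore less certain.

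The first question was whether the mitotic programme as a whole was lower under trametinib. Summed over the 40 genes, the level in KP4 was 9621, 9539 and 9590 CPM in the DMSO libraries and 8103, 8195 and 8099.9 CPM in the trametinib libraries. In MiaPaca2 the sum was 10244, 9649 and 10102 CPM in DMSO and 6351, 6415 and 6199 CPM in trametinib. The groups did not overlap in either line, and the sum was 15.1% lower in KP4 and 36.8% lower in MiaPaca2. Because whole cultures were sequenced, fewer cells in G2 and mitosis and less of these transcripts per such cell cannot be told apart.

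Gene by gene, 36 of the 40 fell in KP4 by edgeR's quasi-likelihood test at an adjusted p under 0.05, CDC25B and KIF20A rose, and ANLN and KIF23 did not pass the test. Over all genes tested in KP4, 24.1% were called lower and 23.9% higher. The median log2 fold change of the 40 was −0.26, against 0.00 over all genes. In MiaPaca2 38 fell, CDC25B rose and KIF23 did not pass the test, where 29.7% of all genes were called lower and 34.4% higher. Their median was −0.72, against 0.05 over all genes. The 36 genes that fell in KP4 all fell in MiaPaca2 too. All 3 trametinib libraries lay below all 3 DMSO libraries for 37 genes in KP4, against 30.5% of all genes, and above them for 2, against 29.6%. In MiaPaca2 these numbers were 38, against 29.8%, and 1, against 34.6%. In KP4 4 genes were down by at least 25% and 0 by at least 50%, and in MiaPaca2 34 and 7. Those 7 were NUF2, PLK1, CDC20, AURKB, UBE2C, TOP2A and CCNB1.

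**Figure D1:**
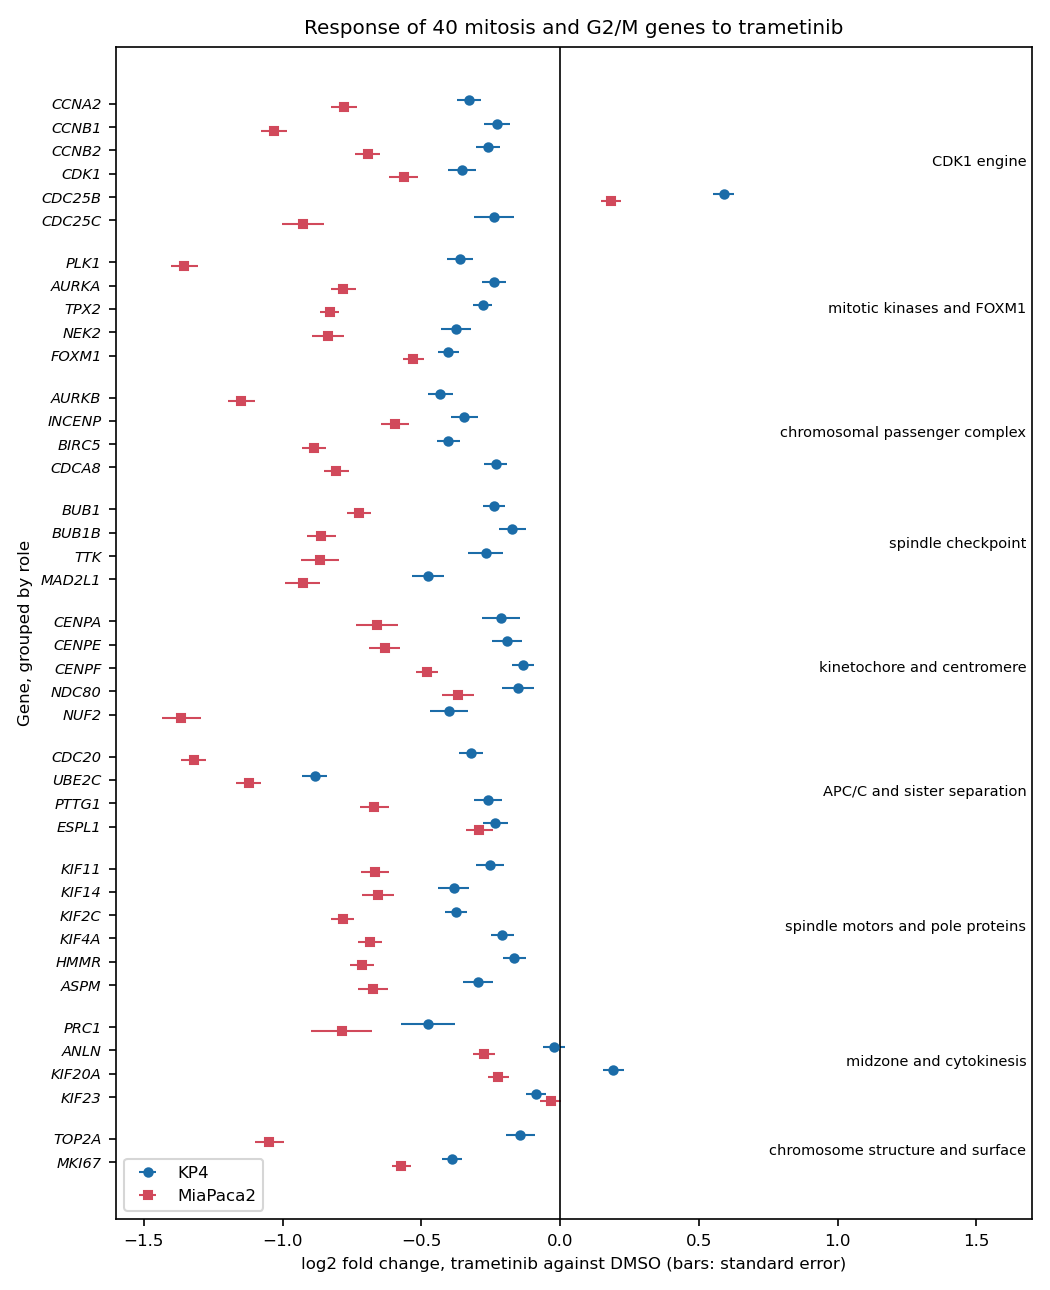
Log2 fold change between trametinib and DMSO for each of the 40 genes, grouped by role, with KP4 as circles, MiaPaca2 as squares and the standard error as bars. All but CDC25B, KIF20A, ANLN and KIF23 fell in both lines, and the MiaPaca2 square lies to the left of the KP4 circle for 39 of 40 genes.

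The fall was deeper in MiaPaca2. The difference between the responses (MiaPaca2 minus KP4, on the log2 scale) was called lower for 36 genes and higher for 0, and 4 genes, FOXM1, ESPL1, PRC1 and KIF23, did not pass its test. Over all genes 16.0% were called lower and 19.7% higher in this test. The median difference was −0.44 for the 40 genes and 0.05 for all genes, and 39 of 40 genes had the lower log2 fold change in MiaPaca2. Across the 40 genes the fold changes of the lines went together only in part, with a Pearson r of 0.661 and a Spearman rho of 0.487, given as a description because genes are not independent replicates.

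**Figure D2:**
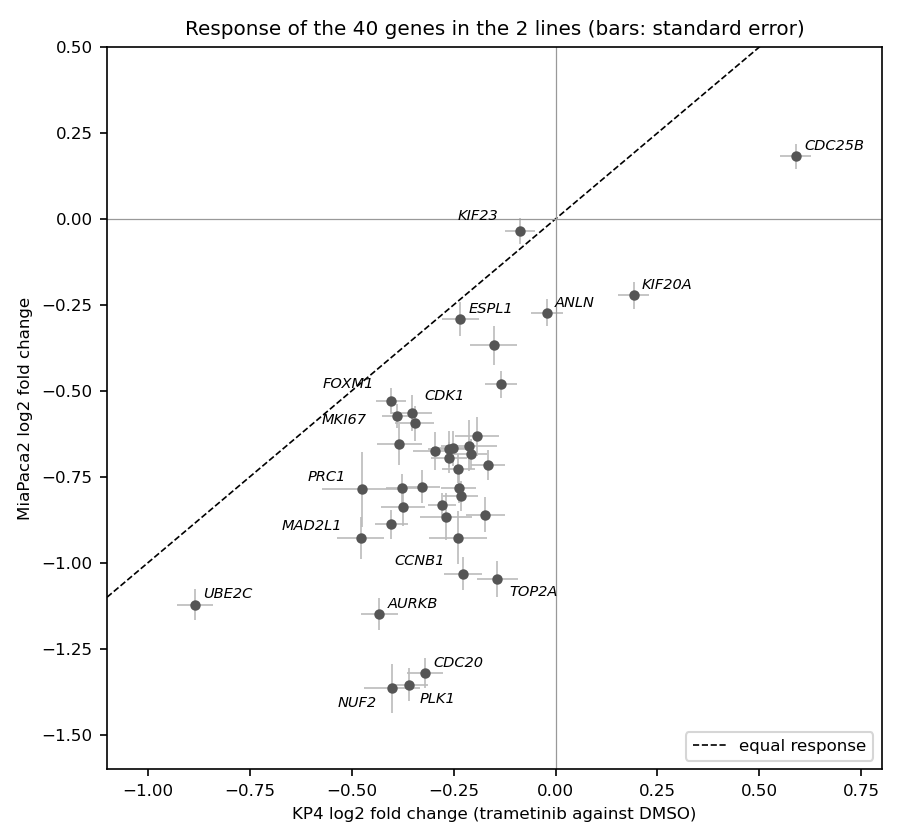
Log2 fold change in KP4 (horizontal axis) and MiaPaca2 (vertical axis) for the 40 genes, each point a gene with its standard errors and the dashed line marking equal responses. KIF23 lies on the upper side of the line and the other 39 below it, with CDC20, PLK1 and NUF2 at the bottom and CDC25B alone at the upper right.

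The cyclins and CDK1 form the engine of mitotic entry, and 5 of its 6 genes fell in both lines. Beside this count, and those of the groups below, stand the shares of all genes called lower, 24.1% in KP4 and 29.7% in MiaPaca2. CCNB1, which encodes cyclin B1 (ENSG00000134057, chromosome 5, 69167010 to 69178245, GRCh38), was at 289.6, 277 and 276 CPM in KP4 DMSO and 236, 248 and 236 CPM in KP4 trametinib. In MiaPaca2 it went from 409, 365 and 413 to 190.1, 206 and 185 CPM. No libraries overlapped between treatments, and MiaPaca2 went from the highest to the lowest level of the 4 groups. CCNB1 fell by 0.23 ± 0.05 on the log2 scale in KP4 (SE; adjusted p = 0.000241) and by 1.03 ± 0.05 in MiaPaca2 (adjusted p = 4.01e-16), a difference of −0.81 (adjusted p = 4.49e-10). CDK1 itself (ENSG00000170312, chromosome 10, 60778331 to 60794852) was at 111, 106 and 111 CPM in KP4 DMSO, 88.6, 85.3 and 82.1 CPM in KP4 trametinib, 108, 100.3 and 97.7 CPM in MiaPaca2 DMSO and 72.5, 67.5 and 67.3 CPM in MiaPaca2 trametinib. The kinase gene fell in both lines without overlap, by 0.35 and 0.56, less far than its cyclin partner in MiaPaca2. The difference between the lines for CDK1, −0.21, had an adjusted p of 0.025 that ran from 0.0502 to 0.0766 without KP4 DMSO replicate 2, KP4 trametinib replicate 2, MiaPaca2 DMSO replicate 1, or MiaPaca2 trametinib replicate 2 or 3. Cyclin A2 (CCNA2) fell by 0.33 and 0.78, cyclin B2 (CCNB2) by 0.26 and 0.69, and the phosphatase gene CDC25C by 0.24 and 0.93, where the first value is KP4 and the second MiaPaca2. Without KP4 DMSO replicate 2 the CDC25C call in KP4 was lost (adjusted p = 0.0609).

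CDC25B, the phosphatase that starts the activation of CDK1 at the centrosome (ENSG00000101224, chromosome 20, 3786772 to 3806121), went the other way. It stood at 217, 213 and 211 CPM in KP4 DMSO and 319.8, 322 and 322 CPM in KP4 trametinib. In MiaPaca2 it was already high in DMSO, at 383, 380.4 and 407 CPM, and reached 458, 441 and 430.0 CPM in trametinib. The treatments did not overlap in either line, and every MiaPaca2 library lay above every KP4 library. The rise was 0.59 ± 0.04 in KP4 (adjusted p = 1.01e-12) and 0.18 ± 0.04 in MiaPaca2 (adjusted p = 0.00011), and the responses differed by −0.41 (adjusted p = 8.97e-07). CDC25B was the only one of the 40 called higher with trametinib in both lines.

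The 5 mitotic kinase and FOXM1 genes all fell in both lines, with median log2 fold changes of −0.36 in KP4 and −0.83 in MiaPaca2. PLK1, the kinase of centrosome maturation and mitotic entry (ENSG00000166851, chromosome 16, 23677656 to 23690367), was at 251, 245 and 252 CPM in KP4 DMSO and 195, 196 and 192 CPM in KP4 trametinib. In MiaPaca2 it went from 362, 367 and 419 CPM to 153, 153 and 143 CPM. The untreated MiaPaca2 libraries were the highest of the 12 and the treated ones the lowest, so the order of the lines turned over. PLK1 fell by 0.36 ± 0.05 in KP4 (adjusted p = 4.68e-07) and by 1.35 ± 0.05 in MiaPaca2 (adjusted p = 1.41e-18), with a difference of −0.99 (adjusted p = 8.58e-12). FOXM1, the transcription factor that activates G2/M genes (ENSG00000111206, chromosome 12, 2857681 to 2877155), had 729.5, 712 and 699.8 CPM in KP4 DMSO and 538, 549 and 532 CPM in KP4 trametinib, then 532, 598 and 572 and 396, 394 and 390.3 CPM in the same order in MiaPaca2. It fell by 0.40 ± 0.04 (adjusted p = 1.41e-09) and 0.53 ± 0.04 (adjusted p = 4.12e-12) in KP4 and MiaPaca2. The difference between these responses, −0.13, had a 95% interval of −0.23 to −0.02 before adjustment and an adjusted p of 0.0694, which passed the threshold with RLE scaling (0.0133), with DESeq2 (0.0134), without KP4 trametinib replicate 1 (0.0169, at −0.19) and without MiaPaca2 DMSO replicate 1 (0.00172). The spindle kinase gene AURKA fell by 0.24 and 0.78, its activator TPX2 by 0.28 and 0.83, and NEK2, a kinase of centrosome separation, by 0.37 and 0.84.

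The chromosomal passenger complex corrects faulty attachments of chromosomes to the spindle. All 4 of its genes fell in both lines, with medians of −0.37 and −0.85. AURKB, its kinase (ENSG00000178999, chromosome 17, 8204733 to 8210600), was at 100.1, 103 and 101 CPM in KP4 DMSO, 73.2, 76.5 and 75.8 CPM in KP4 trametinib, 128, 123 and 133 CPM in MiaPaca2 DMSO and 57.3, 58.7 and 57.6 CPM in MiaPaca2 trametinib. None of the 4 groups overlapped, and the fall was 0.43 ± 0.05 in KP4 (adjusted p = 1.35e-08) and 1.15 ± 0.05 in MiaPaca2 (adjusted p = 3.7e-17). The scaffold gene INCENP fell by 0.35 and 0.59, survivin (BIRC5) by 0.40 and 0.89, and borealin (CDCA8) by 0.23 and 0.81.

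Spindle checkpoint genes formed an even group, with 4 of 4 lower in both lines and MiaPaca2 values between −0.93 and −0.73. MAD2L1, which encodes the inhibitor of CDC20 at the heart of the checkpoint (ENSG00000164109, chromosome 4, 120055608 to 120067074), was at 81.6, 82.0 and 83.0 CPM in KP4 DMSO and 57.4, 62.2 and 57.6 CPM in KP4 trametinib. In MiaPaca2 it was at 88.6, 74.8 and 83.0 CPM in DMSO and 44.5, 41.1 and 43.8 CPM in trametinib. DMSO levels of the lines overlapped, and all trametinib libraries lay below them. MAD2L1 fell by 0.48 ± 0.06 (adjusted p = 1.29e-07) and 0.93 ± 0.06 (adjusted p = 7.42e-13). The checkpoint kinase genes BUB1 and TTK fell by 0.24 and 0.27 in KP4 and by 0.73 and 0.87 in MiaPaca2, and BUB1B, which encodes BUBR1, by 0.17 and 0.86. The BUB1B call in KP4 was lost without KP4 trametinib replicate 1 (adjusted p = 0.0651).

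Kinetochore and centromere genes all fell in both lines, with medians of −0.19 in KP4 and −0.63 in MiaPaca2. NUF2 (ENSG00000143228, chromosome 1, 163266576 to 163355764) and NDC80 encode the partners of 1 rod-shaped dimer that grips microtubules, yet their transcripts responded unequally. NUF2 was at 46.6, 48.8 and 49.2 CPM in KP4 DMSO and 36.1, 36.5 and 36.9 CPM in KP4 trametinib, and at 78.3, 65.0 and 72.5 CPM in MiaPaca2 DMSO and 28.5, 30.2 and 25.5 CPM in MiaPaca2 trametinib. It had the lowest log2 fold change of the 40 in MiaPaca2, −1.36 ± 0.07 (adjusted p = 4.82e-15), against −0.40 ± 0.07 in KP4 (adjusted p = 2.31e-05). NDC80 went from 82.3 ± 6.71 to 63.8 ± 0.946 CPM in MiaPaca2 (mean ± SD, n = 3), a fall of 0.37, and from 65.8 ± 2.88 to 59.1 ± 1.06 CPM in KP4, a fall of 0.15 (adjusted p = 0.03). That NDC80 call in KP4 did not hold with RLE scaling (0.0557), with DESeq2 (0.0665), or without any 1 of KP4 DMSO replicates 1 and 2 and the 3 KP4 trametinib libraries (0.0534 to 0.131). Its difference between the lines, −0.22 (adjusted p = 0.0397), was equally close to the threshold, with 0.0525 under the strict filter and 0.0525 to 0.123 without any 1 of 9 libraries. The centromeric histone CENPA fell by 0.21 and 0.66, the kinetochore motor CENPE by 0.19 and 0.63, and the large kinetochore protein CENPF by 0.13 and 0.48. In KP4 the calls of CENPA were lost without DMSO replicate 2 (0.0509) and without trametinib replicate 3 (0.0804), and that of CENPF without trametinib replicate 1 (0.0514).

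All 4 genes of the APC/C arm and of sister separation fell in both lines, with medians of −0.29 and −0.90. CDC20, the APC/C activator (ENSG00000117399, chromosome 1, 43358955 to 43363203), was at 282, 282 and 283 CPM in KP4 DMSO and 218, 234 and 226 CPM in KP4 trametinib. In MiaPaca2 it went from 418, 415 and 467 CPM to 176, 177 and 168 CPM. The 3 treated MiaPaca2 libraries were again the lowest of all 12 and the untreated ones the highest. CDC20 fell by 0.32 ± 0.04 in KP4 (adjusted p = 9.17e-07) and 1.32 ± 0.04 in MiaPaca2 (adjusted p = 4.97e-19), and its difference of −1.0 (adjusted p = 2.02e-12) was the largest of the 40. UBE2C, the ubiquitin-conjugating enzyme of the APC/C (ENSG00000175063, chromosome 20, 45812576 to 45816957), had 237, 229.5 and 234 CPM in KP4 DMSO and 128, 126 and 125 CPM in KP4 trametinib, and 213, 229 and 230.1 and 102, 109.7 and 97.8 CPM in the same order in MiaPaca2. It had the lowest fold change of the 40 in KP4. Its fall of 0.88 ± 0.04 there (adjusted p = 7.08e-15), a change of −45.8%, was followed by MAD2L1 at −0.48, and in MiaPaca2 it fell by 1.12 ± 0.05 (adjusted p = 3.17e-17). The pseudogenes with the most counts, CDC20P1 and UBE2CP5, held 1154 and 624 counts over all libraries, against 83284 for CDC20 and 51686 for UBE2C, and how reads that map to several places were counted is not given in the sources used here. ESPL1, the separase that cuts cohesin (ENSG00000135476, chromosome 12, 53268299 to 53293643), had 164, 174 and 179 CPM in KP4 DMSO, 145, 145 and 149 CPM in KP4 trametinib, 126, 131 and 129 CPM in MiaPaca2 DMSO and 97.2, 109 and 109 CPM in MiaPaca2 trametinib. It fell without overlap in each line, by 0.23 and 0.29, and the difference between the responses was −0.06 with a 95% interval of −0.20 to 0.08 (adjusted p = 0.539). Securin (PTTG1), the inhibitor of separase, fell by 0.26 and 0.67.

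The 6 genes of spindle motors and pole proteins fell in both lines and within a narrow range in MiaPaca2, from −0.78 to −0.66. They were KIF11, which encodes the motor that pushes the poles apart (−0.25 in KP4 and −0.67 in MiaPaca2), KIF14 (−0.38 and −0.66), the microtubule depolymerase gene KIF2C (−0.38 and −0.78), the chromokinesin gene KIF4A (−0.21 and −0.68), HMMR (−0.17 and −0.71) and the pole protein gene ASPM (−0.30 and −0.68). All 6 differences between the lines were called, from −0.55 for HMMR to −0.27 for KIF14.

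Listed under the spindle midzone and cytokinesis, the last steps of division, were 4 genes. In KP4 only PRC1 fell and KIF20A rose, 1 of 4 each, shares close to the 24.1% and 23.9% of all genes. In MiaPaca2 3 fell and 0 rose, where 29.7% and 34.4% of all genes did. Medians of the 4 were −0.05 and −0.25. This grouping is not complete. The chromosomal passenger complex also acts at the midzone, and all 4 of its genes fell in both lines. Of 24 other spindle and cytokinesis genes 19 fell in KP4 and 23 in MiaPaca2. KIF20A, the kinesin that brings the chromosomal passenger complex to the midzone (ENSG00000112984, chromosome 5, 138178719 to 138187715), was at 225, 212 and 218 CPM in KP4 DMSO and 246, 252 and 250 CPM in KP4 trametinib, and at 235, 241 and 231 CPM in MiaPaca2 DMSO and 206, 203 and 196 CPM in MiaPaca2 trametinib. The libraries did not overlap in either line and moved in opposite directions. KIF20A rose by 0.19 ± 0.04 in KP4 (adjusted p = 0.000152) and fell by 0.22 ± 0.04 in MiaPaca2 (adjusted p = 1.68e-05), and the difference of −0.41 passed its test (adjusted p = 1.1e-06). Exons of KIF20A overlap CDC23 and BRD8 on the opposite strand, so reads of these genes cannot be told apart unless strand was counted. KIF23, the kinesin of the centralspindlin complex (ENSG00000137807, chromosome 15, 69414246 to 69448427), had 291, 283 and 286 CPM in KP4 DMSO and 269, 271 and 269 CPM in KP4 trametinib. In MiaPaca2 it had 188, 192 and 180.1 and 184, 184 and 179.8 CPM, and there the treatments overlapped. Its log2 fold change was −0.09 ± 0.04 in KP4, with a 95% interval of −0.16 to −0.01 and an adjusted p of 0.0503 that became 0.0339 with limma-voom, 0.00166 with only the KP4 libraries, and 0.0185, 0.0155 and 0.0214 without MiaPaca2 DMSO replicates 1, 2 and 3. In MiaPaca2 it was −0.03 ± 0.04, with an interval of −0.11 to 0.04 (adjusted p = 0.444).

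ANLN, the anillin scaffold of the contractile ring (ENSG00000011426, chromosome 7, 36389806 to 36453791), was at 586, 558 and 573 CPM in KP4 DMSO and 559, 560.4 and 572 CPM in KP4 trametinib, which overlapped. In MiaPaca2 it was at 583, 615 and 540.0 CPM in DMSO and 476, 491 and 472 CPM in trametinib, with no overlap. The KP4 value was −0.02 ± 0.04 with a 95% interval of −0.10 to 0.06 (adjusted p = 0.696), and ANLN fell by 0.27 ± 0.04 in MiaPaca2 (adjusted p = 1.24e-06). PRC1, the microtubule bundler of the midzone (ENSG00000198901, chromosome 15, 90966038 to 90995629), was the lowest of the 40, at 15.4, 14.7 and 15.3 CPM in KP4 DMSO, 11.03, 11.02 and 10.6 CPM in KP4 trametinib, 15.2, 14.9 and 12.2 CPM in MiaPaca2 DMSO and 8.45, 8.89 and 7.38 CPM in MiaPaca2 trametinib. It fell in both lines without overlap, by 0.48 ± 0.10 (adjusted p = 0.000215) and 0.79 ± 0.11 (adjusted p = 7.32e-07), and the difference of −0.31 ± 0.15 did not pass its test (adjusted p = 0.105, or 0.029 without MiaPaca2 DMSO replicate 3). A second gene model on the same strand shares exons with PRC1 and held 1028 counts over all libraries, against 3655 for PRC1, so the level of PRC1 is uncertain.

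**Figure D3:**
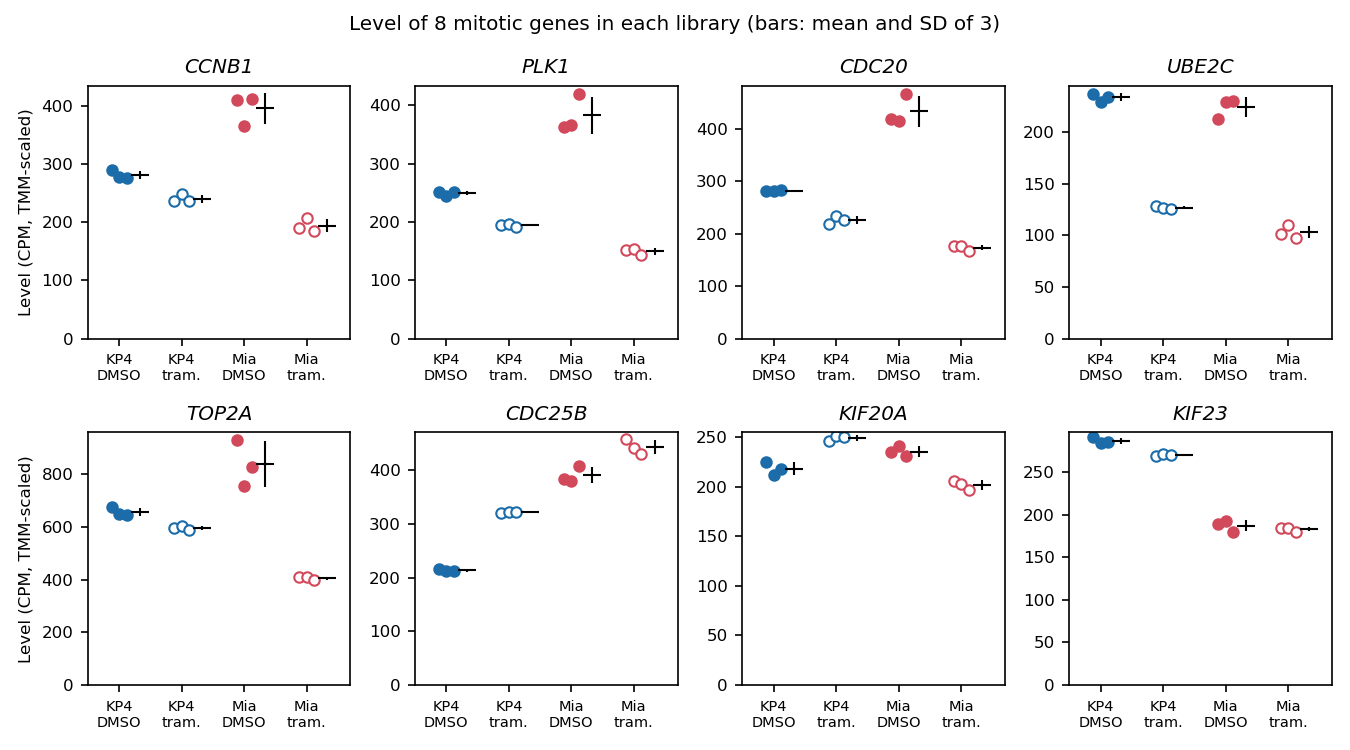
Level of 8 of the genes in CPM in every library (points), with the mean and SD of 3 libraries beside each group. CCNB1, PLK1, CDC20 and TOP2A are highest in untreated and lowest in treated MiaPaca2, UBE2C falls in both lines, CDC25B rises in both, KIF20A moves in opposite directions, and KIF23 differs by line.

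TOP2A and MKI67 complete the list. TOP2A, the topoisomerase that untangles sister chromosomes (ENSG00000131747, chromosome 17, 40388516 to 40417950), was at 676, 651 and 646 CPM in KP4 DMSO and 595, 604 and 588 CPM in KP4 trametinib. MiaPaca2 had 932, 756 and 829 CPM in DMSO and 409.6, 409 and 399 CPM in trametinib. The treatments did not overlap in either line, but the gap was narrow in KP4 and wide in MiaPaca2, where TOP2A fell by 1.05 ± 0.05 (adjusted p = 6.33e-13). The KP4 value of −0.14 ± 0.05 (adjusted p = 0.0258) lost its call with RLE scaling (0.051), with DESeq2 (0.0614), and without KP4 DMSO replicate 1, KP4 trametinib replicate 1 or 3, or MiaPaca2 DMSO replicate 3 (0.0605 to 0.118). MKI67, whose product Ki-67 coats mitotic chromosomes (ENSG00000148773, chromosome 10, 128096659 to 128126385), was the most abundant of the 40 in CPM. It had 1194, 1213 and 1249 CPM in KP4 DMSO, 920.2, 941 and 928 CPM in KP4 trametinib, 1125, 1024 and 1104 CPM in MiaPaca2 DMSO and 721, 744 and 721 CPM in MiaPaca2 trametinib. It fell by 0.39 ± 0.03 in KP4 (adjusted p = 6.5e-10) and 0.57 ± 0.04 in MiaPaca2 (adjusted p = 1.51e-13), a difference of −0.18 (adjusted p = 0.00478).

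The lines were also compared within each treatment. In DMSO 16 of the 40 genes were higher in MiaPaca2, 8 were lower and 16 did not pass the test, where 31.2% of all genes were called higher and 32.0% lower. With library size as the only scaling the counts were 12 higher and 11 lower. The median log2 difference (MiaPaca2 minus KP4) was 0.01, against −0.02 over all genes, so the untreated lines differed by gene and not in 1 direction. The highest were CDC25B at 0.87, CDC20 at 0.62 and PLK1 at 0.62, with NUF2 at 0.58. The lowest were KIF23 at −0.62 ± 0.04 (adjusted p = 1.7e-13), ESPL1 at −0.42 and FOXM1 at −0.33. In trametinib 38 genes were lower in MiaPaca2, CDC25B was higher (0.46) and NDC80 was at 0.11 (adjusted p = 0.115, or 0.0303 with only the trametinib libraries), where 26.5% of all genes were called lower and 29.8% higher. The median was −0.40, against 0.01 over all genes. Of the 16 genes that were higher in MiaPaca2 in DMSO, 14 were lower there in trametinib. These comparisons share libraries with those of the treatment, so they give the same data seen from the side of the lines.

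**Figure D4:**
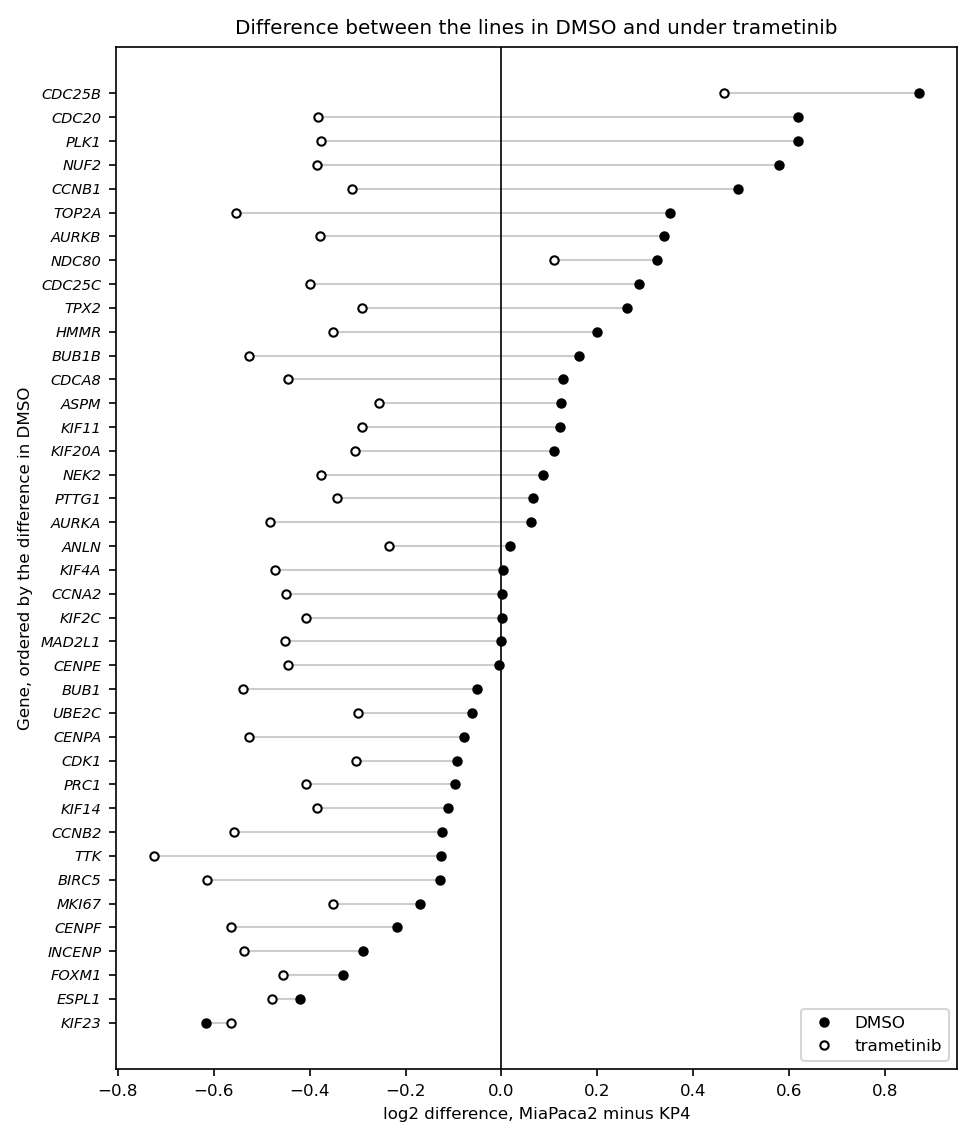
Log2 difference between the lines (MiaPaca2 minus KP4) for each gene, with filled points in DMSO and open points in trametinib, ordered by the DMSO value. Filled points spread on both sides of 0, from −0.62 for KIF23 to 0.87 for CDC25B, and open points lie below 0 for all genes but CDC25B and NDC80.

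Set per kilobase of annotated exon, so that genes can be compared with each other, the median level of the 40 was 46.8 CPM per kb in untreated KP4 and 38.6 with trametinib, and 45.9 and 27.5 CPM per kb in MiaPaca2. UBE2C led in KP4 DMSO at 182 CPM per kb, ahead of FOXM1 at 146 and CDC20 at 138, and CDC20 led in MiaPaca2 DMSO at 213. In MiaPaca2 trametinib the leading gene was CDC25B at 103 CPM per kb, and CDC20 stood at 85.2. PRC1 and then CDC25C were lowest in all 4 groups. Across the 40 genes the log2 fold change had a Spearman rho with the DMSO level per kb of 0.014 in KP4 and −0.124 in MiaPaca2, and with exon length of 0.158 and 0.429, as a description of genes that share their libraries. Replicate spread was small, with a median coefficient of variation over the 40 genes of 2.03% in DMSO and 1.79% in trametinib for KP4, and 5.64% and 3.14% for MiaPaca2.

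Promoter sequence was read from RefSeq windows on GRCh38.p14, from 250 bases before to 50 bases after each start, to see what letters these genes share. Windows were listed for 34 of the 40 genes, 43 windows in all, and TTK, BIRC5, FOXM1, AURKA, UBE2C and TPX2 had none. Motifs were searched on both strands. TTTGAA was in 24 of the 34 genes, 70.6%, and in 18.2% of all 27305 genes listed. CCAAT was in 28 genes, 82.4%, against 39.7% of all. At least 2 CCAAT boxes in a window were held by 17 of the genes. This was not counted over all genes, so whether 17 is many cannot be said. TTCGAA, another spelling of the CHR, was in 3 genes, 8.8%, against 1.82% of all, and TTTAAA, which was added after the sequences were seen, in 14 genes, 41.2%, against 14.5%. TGTTTA, the letters of a forkhead site, was in 4 genes, 11.8%, against 14.7%. Counted by window, TTTGAA was in 60.5% of the 43 and 15.2% of all 35116 windows, and CCAAT in 76.7% and 34.6%. In 3 places matches of different motifs overlapped. Genes with TTTGAA had a median log2 fold change of −0.25 in KP4 and −0.68 in MiaPaca2, and those without it −0.25 and −0.75.

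The 100 bases before the RefSeq start are shown for the genes with the largest differences between the lines (CDC20 and PLK1), for the B cyclins that fell (CCNB1 and CCNB2) and for midzone kinesins that were not called lower in both lines (KIF20A and KIF23). Capitals mark the CHR letters TTTGAA, the related run TTTAAA and the CCAAT box, the last also as ATTGG where it lies on the other strand. All 6 windows are on the plus strand of GRCh38.p14, at chr1:43358881-43358980 for CDC20, chr16:23678789-23678888 for PLK1, chr15:59105046-59105145 for CCNB2, chr5:69167050-69167149 for CCNB1, chr5:138179012-138179111 for KIF20A and chr15:69414249-69414348 for KIF23.
CDC20: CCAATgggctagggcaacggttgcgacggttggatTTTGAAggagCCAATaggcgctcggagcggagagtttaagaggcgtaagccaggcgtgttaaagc
PLK1: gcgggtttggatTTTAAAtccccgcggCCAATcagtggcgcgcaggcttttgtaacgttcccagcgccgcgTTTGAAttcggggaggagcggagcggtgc
CCNB2: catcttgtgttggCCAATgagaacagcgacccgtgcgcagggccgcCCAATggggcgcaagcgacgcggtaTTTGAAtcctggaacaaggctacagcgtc
CCNB1: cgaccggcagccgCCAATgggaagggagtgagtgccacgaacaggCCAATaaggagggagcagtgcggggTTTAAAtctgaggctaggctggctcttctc
KIF20A: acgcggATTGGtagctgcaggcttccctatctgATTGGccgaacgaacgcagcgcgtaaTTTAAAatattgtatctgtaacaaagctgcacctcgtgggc
KIF23: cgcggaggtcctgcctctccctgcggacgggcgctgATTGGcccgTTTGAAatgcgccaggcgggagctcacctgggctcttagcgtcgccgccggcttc
Counted back from the start, TTTGAA began at base −65 in CDC20, −29 in both PLK1 and CCNB2, and −55 in KIF23, while CCNB1 and KIF20A held TTTAAA at −30 and −41 in these 100 bases. KIF23 held TTTGAA and CCAAT, as CDC20 did. By edgeR's test KIF23 was at an adjusted p of 0.0503 in KP4 and 0.444 in MiaPaca2. Whether these letters bear on the responses was not tested. A match is a run of letters and shows no binding.

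Other genes of the division cycle were read from lists by role, beside the 24.1% of all genes called lower and 23.9% called higher in KP4, and 29.7% and 34.4% in MiaPaca2. Condensin, which packs chromosomes, fell in 8 of 8 genes in both lines, with medians of −0.37 in KP4 and −0.66 in MiaPaca2. NCAPH, a condensin I subunit, fell by 0.50 and 0.92. Among 29 other kinetochore and centromere genes 23 fell in KP4 and 25 in MiaPaca2, with 0 higher, from CENPW at −0.63 in KP4 to MIS18A, which helps to load CENPA, at −1.67 in MiaPaca2. Of 24 other spindle and cytokinesis genes 19 and 23 fell, with 0 higher, among them the spindle kinesin KIF15 (−0.49 in KP4) and the chromokinesin KIF22 (−1.27 in MiaPaca2). Of 13 regulators of CDK1 9 fell in KP4, led by the phosphatase CDC25A (−0.63), and 11 in MiaPaca2, led by the PLK1 cofactor BORA (−0.98), where MASTL rose by 0.21. Cohesin and its guards fell in 6 and 9 of 14 genes, with medians of −0.11 and −0.17, CDCA5 by 0.56 in KP4 and ESCO2 by 1.36 in MiaPaca2. Of the APC/C's own subunits and regulators, 4 of 17 fell in KP4, a share close to the 24.1% of all genes, and 8 fell and 1 rose in MiaPaca2, with medians of −0.08 and −0.14. Among them the APC/C inhibitor FBXO5 fell furthest in both lines, by 0.50 and 0.96, and ANAPC16 rose by 0.21 in MiaPaca2.

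Genes of the machinery that controls G2/M transcription were read next. Of 14 genes listed with DREAM and MuvB, 6 fell and 2 rose in KP4, where 24.1% of all genes were called lower and 23.9% higher. The list includes RB1, which is not a subunit of either. In MiaPaca2 6 fell and 1 rose, where the shares over all genes were 29.7% and 34.4%. The medians were −0.06 and −0.10. MYBL2, which encodes the activator B-MYB, was at 165, 171 and 173 CPM in KP4 DMSO and 159.8, 163 and 160.4 CPM in KP4 trametinib, and at 509.7, 441 and 535 CPM in MiaPaca2 DMSO and 201, 206 and 198 CPM in MiaPaca2 trametinib. Treatments did not overlap in either line, but the gap was narrow in KP4 and wide in MiaPaca2. The log2 fold change was −0.08 ± 0.05 in KP4 (adjusted p = 0.241), and MYBL2 fell by 1.30 ± 0.05 in MiaPaca2 (adjusted p = 1.22e-16). The difference of −1.22 ± 0.07 (adjusted p = 3.89e-12) was larger than that of any of the 40 genes, and MYBL2 was higher in MiaPaca2 than in KP4 in DMSO by 1.54 (adjusted p = 6.36e-18). E2F4, the E2F of the repressive DREAM complex, fell by 0.51 and 0.90, and MYBL1 rose by 0.40 in KP4. Of the NF-Y subunits, NFYA fell by 0.47 and 0.48 while NFYB rose by 0.74 and 0.44.

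DNA replication and G1/S genes, which act earlier in the cycle, fell in 35 of 36 cases in each line. Of all genes 24.1% were called lower in KP4 and 29.7% in MiaPaca2. The medians of the replication genes were −0.46 in KP4 and −0.87 in MiaPaca2, against 0.00 and 0.05 over all genes. Both lay further below 0 than those of the 40 mitotic genes (−0.26 and −0.72). The median difference between the responses was −0.39 for the replication genes and −0.44 for the mitotic genes. Whether the 2 lists differ was not tested. CCNE2, which encodes cyclin E2, fell by 0.71 in KP4 and GINS4, a subunit of the replicative helicase, by 1.49 in MiaPaca2, the lowest of their list.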

How the data were processed

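Poly(A) RNA libraries of 12 samples, 3 in each of 4 groups given by the labels, were sequenced, and the authors deposited 1 table of raw, unscaled counts by gene. The submitters' processing notes name the aligner STAR, DESeq2 and the build GRCh38 (hg38). Versions, the counting program and the annotation were not given in the sources used here. Positions and exon lengths came from GENCODE 29, which held all 58735 identifiers, and 0 columns matched no sample. Totals ran from 20293688 to 28018129 counts per library, and no pair of replicates agreed within sampling noise by a chi-square test. All 12 were kept, MiaPaca2 DMSO replicate 2 among them.

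From these counts, genes were filtered with filterByExpr and scaled with TMM, and edgeR 4.0.16 (R 4.3.3) fitted 1 mean per group over all 12 libraries with robust quasi-likelihood. Benjamini-Hochberg adjustment ran over all 16133 genes, and an adjusted p under 0.05 is a call. The biological coefficient of variation from the common dispersion was 5.47%. The scripts were tested on simulated data. Contrasts were trametinib minus DMSO in each line, the difference of these, and MiaPaca2 minus KP4 within each treatment. The model fits were repeated with DESeq2 1.42.0, limma-voom (limma 3.58.1), other scalings and filters, and without each library.

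The genes and lists were chosen with earlier results of these data known, and a list is described by its counts and median without a test. Values in every library are printed for genes among the 5 lowest or 3 highest fold changes in a line, the 4 lowest or 4 highest differences of the responses, or the 3 lowest or 3 highest line differences in DMSO, and for MKI67, CCNB1, CDK1, PLK1 and FOXM1. From each other list, the called genes with the lowest and highest fold change in a line could be named. MYBL2 is given in full because it came first in its list. The motif TTTAAA and edgeR's legacy quasi-likelihood fit were added after the data were seen.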

Additional observations from a re-analysis of the deposited data

Results flagged for a closer look

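The response to trametinib differed between the lines, by edgeR's test of the difference itself, for 13 of the 17 genes printed in full. Some of these 17 were chosen by the size of this same difference, so their count is no separate result. Among all 40 genes 36 were called lower and 0 higher. Over all genes tested 16.0% were called lower and 19.7% higher. The values are the log2 fold change in MiaPaca2 minus that in KP4, with 3 libraries per group. Differences near 1 on this scale were those of CDC20 (−1.0, adjusted p = 2.02e-12), PLK1 (−0.995, adjusted p = 8.58e-12), NUF2 (−0.96, adjusted p = 2.21e-08) and TOP2A (−0.90, adjusted p = 7.79e-09). CCNB1 was at −0.81 (adjusted p = 4.49e-10) and AURKB at −0.72 (adjusted p = 2.98e-09). MAD2L1 followed at −0.45 (adjusted p = 0.000133), ANLN at −0.25 (adjusted p = 0.000822), UBE2C at −0.24 (adjusted p = 0.00444), CDK1 at −0.21 (adjusted p = 0.025) and MKI67 at −0.18 (adjusted p = 0.00478). KIF20A, at −0.41 (adjusted p = 1.1e-06), rose in KP4 and fell in MiaPaca2. CDC25B, also at −0.41 (adjusted p = 8.97e-07), rose in both lines, and more in KP4.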

How the results depend on the processing

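The counts of called genes among the 40 stayed within 1.5 times of those reported under every alternative run, in all 5 comparisons. Leaving out each library in turn gave 34 to 39 calls in KP4, 39 to 39 in MiaPaca2, 34 to 37 for the difference of the responses, 20 to 26 between the lines in DMSO and 39 to 39 in trametinib. Of 1853 alternative values of the genes printed in full, 1815 kept their direction and their side of the threshold, 14 lost the call, 12 gained it and 12 changed sign. Every sign change was in a value without a call. ANLN in KP4 was at 0.0084 without KP4 trametinib replicate 1, the highest of values down to −0.0411 when libraries were left out. KIF23 was at 0.0051 in MiaPaca2 with the strict filter of 5 CPM, and its difference of the responses was −0.0120 without KP4 trametinib replicate 1, the lowest of values up to 0.0711. For MAD2L1 the line difference in DMSO was 0.0295 with RLE scaling, 0.0295 with DESeq2, 0.0238 with only the libraries compared, 0.0039 without KP4 DMSO replicate 3, 0.0215 without KP4 trametinib replicate 1 and 0.0623 without MiaPaca2 DMSO replicate 2, with −0.0609 the lowest when a library was left out. For ANLN it was −0.0143 with library size only, −0.0025 without KP4 DMSO replicate 2 and −0.0270 without MiaPaca2 DMSO replicate 2, with 0.0665 the highest when a library was left out. The cause was not tested. The summed level in KP4 DMSO moved from 9583 to 9505.5 CPM with RLE scaling and 9631.9 with library size only, and that in KP4 trametinib from 8133 to 8251.9 with library size only.

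Replicate numbers were checked as pairs. Deviations of same-numbered DMSO and trametinib libraries correlated at 0.021, 0.0056 and −0.0028 in KP4 and 0.0026, 2e-04 and −0.0238 in MiaPaca2, so no pairing was seen. The check ran over all genes tested, with 3 libraries per group. It cannot exclude that same-numbered libraries were handled together. With a replicate block the calls were 38 in KP4, 39 in MiaPaca2, 35 for the difference, where NDC80 lost its call (adjusted p = 0.0551), 24 in DMSO and 39 in trametinib. Precision was lower for genes with few counts: the standard errors in KP4 and MiaPaca2 were 0.0972 and 0.110 for PRC1, whose 180 counts were the lowest in any library, against 0.0347 and 0.0350 for MKI67 at the same 3 libraries per group.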
